A study of Mus musculus with 12 samples.

Results

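A set of 10 genes that hold lymphocytes in a resting state was followed in 12 RNA sequencing libraries of mouse spleen. The genes were picked by name and comprise Klf2, Klf3, Foxo1, Foxo3, Foxp1, Btg1, Btg2, Tob1, Tsc1 and Tsc22d3, that is 10 of the 41128 genes in the expression table. All 10 passed the filter on low values, which 12520 genes passed. The libraries came from C57BL/6J mice aged 6 to 8 weeks and formed 4 groups of 3, namely resting CD43- B cells and naive CD4+ CD62L+ T cells, each from females and from males. The labels name no treatment and no altered allele, and the sort of the T cells kept those with CD62L, little CD44 and no CD25. Mice were pooled for each replicate, so the p-values below measure the spread between libraries and not between animals. The female and male T cell libraries numbered 6 stood apart from the other T cell libraries in Il2ra, which encodes CD25, with 4.999 and 4.11 beside 0.158 to 0.34 in the other 4. Those libraries also had the highest T cell values of Cd69, an early activation marker (64.1 and 97.3), and of Foxp3, the factor of regulatory T cells (2.57 and 1.82), and the values of the regulators without them are given below.

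Resting B and T cells circulate without dividing, and this state is actively maintained. The transcription factors KLF2 and FOXO1 keep homing and survival receptors on, and the phosphoinositide 3-kinase (PI3K) and AKT pathway drives FOXO proteins out of the nucleus once an antigen receptor fires. Proteins of the BTG and TOB family recruit the CCR4-NOT deadenylase to shorten mRNA tails, TSC1 with TSC2 restrains the growth kinase mTORC1, and TSC22D3, also called GILZ, is a leucine zipper protein induced by glucocorticoids. The comparison asks how the levels of these regulators differ between resting cells of both lineages and between the sexes.

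Levels are given as adjusted TPM, the deposited measure of transcript abundance, and TPM is by its definition corrected for gene length. What was adjusted is not given in the sources used here, so the order of levels between genes below takes the values as length-corrected. In B cells Btg1 had the highest mean level, 424 ± 51.7 (SD, n = 6), followed by Tsc22d3, Foxp1, Klf2 and Btg2, and the libraries of each of these genes overlapped those of its neighbour in the order. The remaining 5 genes were lower, with Foxo1 at 35.3 ± 3.31 (SD, n = 6) and Tob1 at the bottom with 11.1 ± 1.81 (SD, n = 6). The widest gap in B cells lay between the lowest Btg2 library, at 105, and the highest Foxo1 library, at 38.8. In T cells Btg1 was again highest, at 462 ± 33.4 (SD, n = 6), and did not overlap Tsc22d3, the next gene. The T cell order then ran through Klf2, Btg2 and Foxp1, each overlapping the gene before it, to Klf3, Foxo1 and Foxo3, each below the range of the gene before it, and Tsc1 stood last with 11.4 ± 0.707 (SD, n = 6). In the mean of B cells, 98.7% of tested genes lay below Btg1 and 51.0% below Tob1. The deposited bounds of a single value were narrow, with a ratio of upper to lower bound from 1.02 for Btg1 to 1.31 for Tob1.

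**Figure D1:**
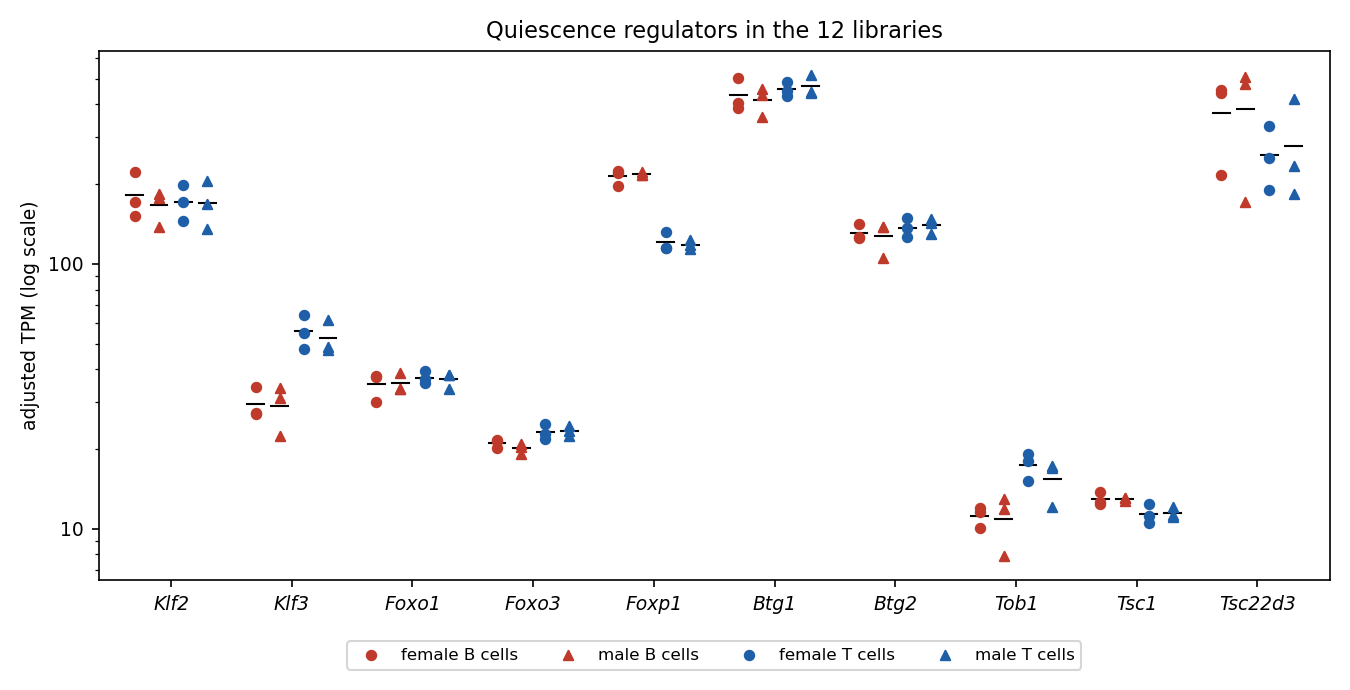
Adjusted TPM (log axis) of the 10 regulators in the 12 libraries, with female libraries as circles, male libraries as triangles, B cells in red and T cells in blue, and a bar at the mean of each group of 3. Foxp1 is higher in the 6 B cell libraries (196 to 225) than in the 6 T cell libraries (113 to 132), Klf3 is higher in T cells, and Tsc22d3 has the widest spread within a group.

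Of the 10 regulators, 5 differed between B and T cells, 2 higher in B cells (Foxp1 and Tsc1) and 3 higher in T cells (Klf3, Tob1 and Foxo3). This was read from limma on log2(adjusted TPM + 1) with Benjamini-Hochberg adjustment over all tested genes at 0.05, under which 73.0% of all tested genes were called, 31.4% with B cells higher and 41.6% with T cells higher. The B and T cell libraries did not overlap for 4 of the 10 (Klf3, Foxo3, Foxp1 and Tsc1), beside 53.9% of all tested genes. With a log2 fold change of at least 1 in either direction, 0 members were called, beside 21.6% of tested genes. The median absolute log2 fold change was 0.17 over the members and 0.40 over all tested genes, and the median signed value was -0.09 over both.

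**Figure D2:**
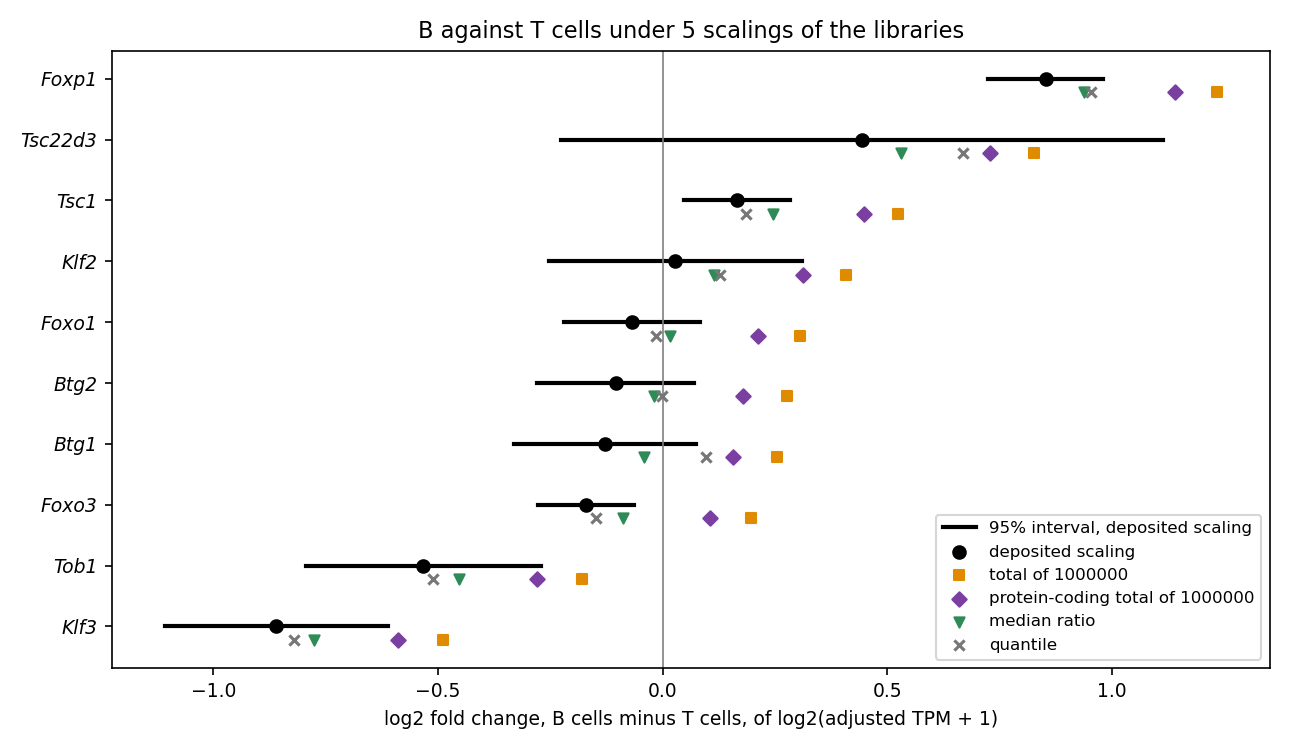
Log2 fold change of B cells minus T cells for each regulator, with a 95% interval for the deposited scaling (black) and the point estimate under 4 other scalings of the libraries. Foxp1 lies right of 0 and Klf3 left of 0 under each of the 5 scalings, while Foxo1, Foxo3, Btg1 and Btg2 change side under at least 1 of them.

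The scale between libraries is a choice, and the deposited totals ran from 561020 to 1453940. The median of all tested genes stood at a log2 fold change of -0.09 as deposited, -0.01 under median-ratio scaling, -0.08 after quantile normalization, 0.26 after rescaling to equal totals and 0.18 after rescaling to equal protein-coding totals. The last 2 therefore moved genes towards B cells, and the share of called genes that was higher in B cells was 71.6% and 66.3% with them, beside 3926 of 9134 as deposited. Under them 3 and 5 regulators were higher in B cells and 1, Klf3, was higher in T cells. After rescaling to equal totals the limma p-values did not follow the spread of single genes. Hbb-bs, at 0.21 to 154 in B cells and 1.51 to 32.3 in T cells as deposited, had an adjusted p of 3.4e-20 there. As deposited its limma adjusted p was 0.24, so calls under equal totals carry this limit. Relative to the median of all genes, Foxp1 lay between 0.94 and 1.04, Klf3 between -0.77 and -0.74, Tob1 between -0.46 and -0.43, Tsc1 between 0.25 and 0.27 and Foxo3 between -0.08 and -0.06 under the 5 scalings. Scalings that multiply all genes of a library by 1 factor shift the log2 fold changes of all genes nearly alike. Subtracting the median largely removes that shift, so their near-equal values do not test the dependence on scaling. Quantile normalization is not of this kind, and the direction of these 5 against the average gene was the same there. Of these 5, Foxo3 lay closest to the average gene. Its own log2 fold change turned to 0.20 after rescaling to equal totals and 0.10 after rescaling to equal protein-coding totals. Without both T cell libraries numbered 6, 5 regulators passed the threshold, with log2 fold changes of -0.75 for Klf3, -0.46 for Tob1, -0.19 for Foxo3, 0.87 for Foxp1 and 0.21 for Tsc1. In bulk RNA, fewer cells of a type and less RNA per cell cannot be told apart.

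Of the Krüppel-like factors, Klf3 differed between lineages and Klf2 did not pass the threshold. Klf2 (chromosome 8, 72319033 to 72321656, GRCm38), the factor that keeps naive T cells quiescent and recirculating, had its lowest, median and highest level at 138, 174 and 222 in B cells. In T cells the same values were 136, 169.6 and 205, so the ranges nearly coincided. The log2 fold change was 0.03 with a 95% interval of -0.25 to 0.31 (limma adjusted p = 0.85). Its sign turned under 7 of 26 alternative settings, and it passed the threshold under 1, rescaling to equal protein-coding totals (0.31, adjusted p = 0.034). Klf3 (chromosome 5, 64803388 to 64832901), a related zinc finger protein that acts mainly as a repressor, ran from 22.5 through a median of 29.2 to 34.3 in B cells and from 47.3 through 51.8 to 64.0 in T cells. Every T cell library was above every B cell library. Klf3 was 1.81-fold higher in T cells on the log2(adjusted TPM + 1) scale, a log2 fold change of -0.86 with a standard error of 0.11 (limma adjusted p = 1.9e-05), and it passed the threshold under all 26 alternative settings tried.

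A ratio of both genes within a library is the same under any scaling that multiplies all genes of that library by 1 factor, as 4 of the 5 scalings do and quantile normalization does not. Klf2 exceeded Klf3 by 5.41 to 6.47 times in the 6 B cell libraries and by 2.21 to 4.21 times in the 6 T cell libraries. The ratio was 1.88-fold larger in B cells by geometric means of 5.91 and 3.15 (exact two-sided permutation test, p = 0.00216, the smallest that 6 against 6 libraries allow, and 0.00433 after Benjamini-Hochberg adjustment over 4 ratios). With the female and male T cell library of each number averaged, that is 6 against 3 values, the exact permutation p was 0.0119, the smallest this design allows, and 0.0238 after adjustment. Within T cells the ratio was not constant, with 4.17 and 4.21 in the libraries numbered 4 but 2.26 and 2.21 in those numbered 6. Without the latter the log2 difference of the ratio fell from 0.91 to 0.66 (exact permutation p = 0.00476, adjusted p = 0.00952).

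**Figure D3:**
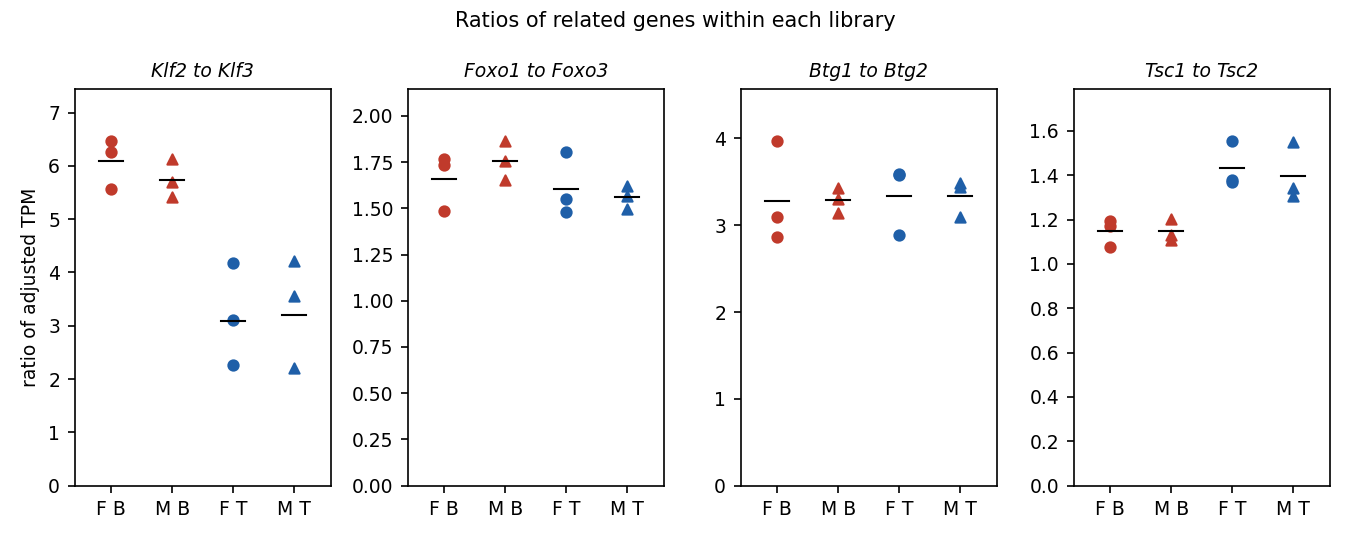
Ratio of adjusted TPM of 2 related genes within each library, for female B (F B), male B (M B), female T (F T) and male T (M T) cells, with a bar at the geometric mean of each group of 3. The B and T cell ranges are apart for Klf2 to Klf3 and for Tsc1 to Tsc2 and overlap for Foxo1 to Foxo3 and Btg1 to Btg2.

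Of 11 further KLF, FOXO and FOXP genes, 8 could be tested (median log2 fold change -0.16, beside -0.09 over all tested genes). Of these, 3 were higher in B cells and 4 in T cells, beside 31.4% and 41.6% of all tested genes. The other 1 was not past the threshold. After rescaling to equal totals 0 were higher in T cells, and after rescaling to equal protein-coding totals 1 was, beside 3 higher in B cells under both. Klf4, another Krüppel-like factor that restrains proliferation, had 6.44 ± 3.96 in B cells and 2.21 ± 1.37 in T cells (SD, n = 6), a log2 fold change of 1.18 (limma adjusted p = 0.0060). Its ranges overlapped, with 2.77 to 13.9 in B cells and 0.730 to 4.41 in T cells. Klf4 was highest in female B cell 1 and lowest in the T cell libraries numbered 6 (1.03 and 0.730). Foxp4, a paralogue of Foxp1, had 11.8 ± 1.13 in B cells and 5.38 ± 0.214 in T cells (SD, n = 6), a log2 fold change of 1.00 (limma adjusted p = 1.5e-08). Foxp1 and Foxp4 were thus both higher in B cells. Klf13 was higher in T cells with a log2 fold change of -0.82 (limma adjusted p = 6.9e-09), although after rescaling to equal totals it was -0.44 with an adjusted p of 0.051.

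Genes known as targets of KLF2 and FOXO1 were higher in T cells. Of the 5 reported, 4 were higher in T cells, 0 were higher in B cells and Klf2 itself was not past the threshold (median log2 fold change -1.45). Over all tested genes 41.6% were higher in T cells and 31.4% in B cells. S1pr1, the receptor for the egress signal sphingosine 1-phosphate, had 131 ± 14.4 in B cells and 277 ± 35.0 in T cells (SD, n = 6), a log2 fold change of -1.08. Ccr7, which guides cells to T cell zones, had 85.2 ± 11.9 in B cells and 233 ± 22.7 in T cells (SD, n = 6), a log2 fold change of -1.45. Both receptors are part of the machinery that keeps resting cells recirculating. Itgb7, an integrin chain for gut homing, had 54.6 ± 6.04 in B cells and 228 ± 28.3 in T cells (SD, n = 6), a log2 fold change of -2.04. Il7r, the receptor chain for the survival cytokine interleukin 7, had 0.419 ± 0.220 in B cells and 218 ± 7.28 in T cells (SD, n = 6). These 4 targets passed the threshold under all 5 scalings.

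**Figure D4:**
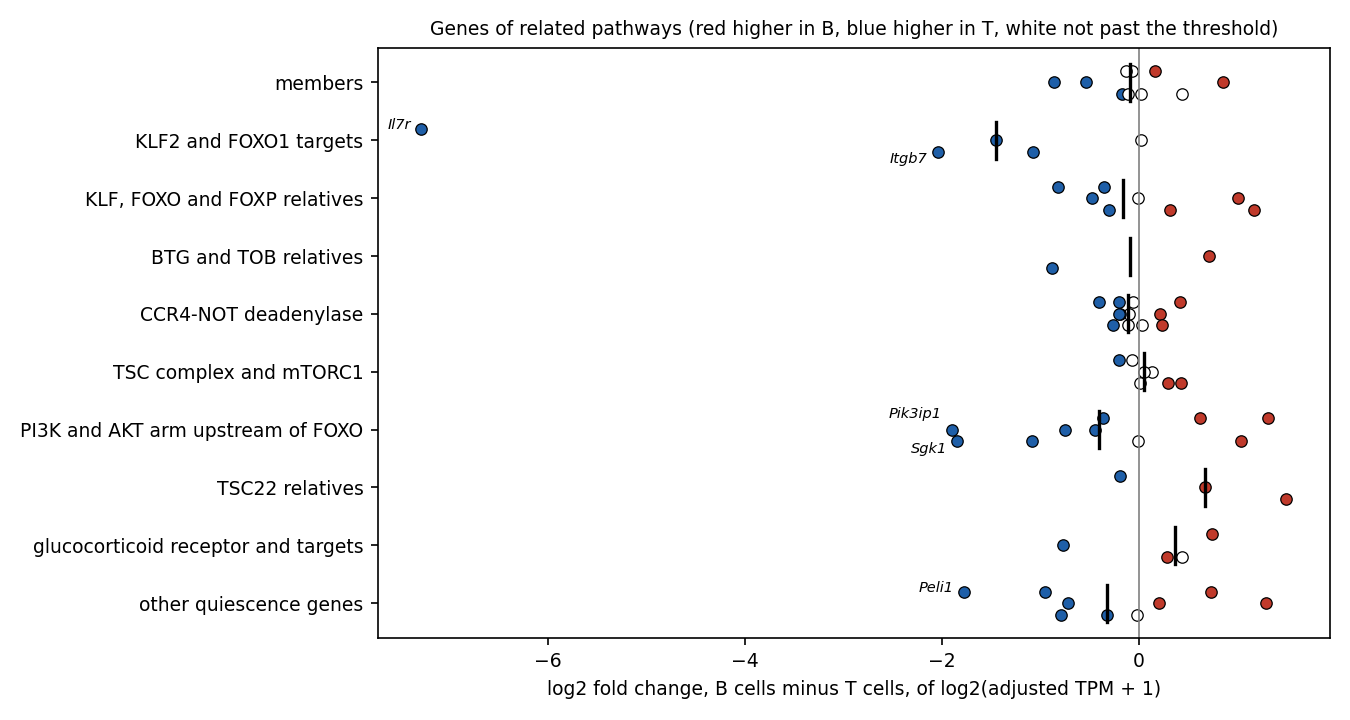
Log2 fold change of B cells minus T cells for the regulators and for the tested and reported genes of 9 related lists, red where higher in B cells, blue where higher in T cells, white where not past the threshold, with a bar at the median of each list. The regulators lie between -0.86 and 0.85, while Il7r reaches -7.28 and Itgb7 -2.04.

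Among the forkhead regulators Foxo1, Foxo3 and Foxp1, the largest difference was that of Foxp1 (chromosome 6, 98925338 to 99522721), a repressor needed for early B cell development and for the quiescence of naive T cells. Its lowest, median and highest levels were 196, 219 and 225 in B cells. In T cells they were 113, 116 and 132. Each B cell library was well above each T cell library, and the coefficient of variation over the 6 B cell libraries was 4.70%. Foxp1 was 1.81-fold higher in B cells, a log2 fold change of 0.85 with a standard error of 0.06 (limma adjusted p = 2.9e-08), and passed the threshold under all 26 alternative settings. The annotation holds 32 transcripts of Foxp1, and a protein-coding model on the same strand, Gm20696, lies over it with 20.6 to 28.6 in B cells and 10.5 to 15.7 in T cells. Whether reads of Foxp1 were assigned to Gm20696 was not tested.

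Foxo1 (chromosome 3, 52268336 to 52353221), the forkhead factor that drives Il7r and Klf2 expression, overlapped between lineages. It ran from 30.1 through 35.6 to 38.8 in B cells and from 33.7 through 37.4 to 39.5 in T cells, with a log2 fold change of -0.07 and a 95% interval of -0.22 to 0.08 (limma adjusted p = 0.39). After rescaling to equal protein-coding totals Foxo1 was higher in B cells (0.21, adjusted p = 0.044). Foxo3 (chromosome 10, 42181841 to 42276755), its relative with a known part in lymphocyte survival, ran from 19.2 through 20.6 to 21.6 in B cells and from 21.9 through 23.2 to 24.8 in T cells. The ranges of Foxo3 lay close to each other without overlapping. The difference was small, 1.13-fold higher in T cells with a log2 fold change of -0.17 and a standard error of 0.05 (limma adjusted p = 0.0072). It was lost under 4 of 26 alternatives, namely median-ratio scaling (-0.09), rescaling to equal totals (0.20), rescaling to equal protein-coding totals (0.10) and females alone (-0.13, adjusted p = 0.16). The ratio of Foxo1 to Foxo3 was 1.49 to 1.87 in B cells and 1.48 to 1.80 in T cells (exact two-sided permutation test, p = 0.117, adjusted p = 0.156).

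In the kinase arm that controls FOXO proteins, 3 of 10 listed genes were higher in B cells, 6 were higher in T cells and 1 was not past the threshold (median log2 fold change -0.40), beside 31.4% and 41.6% of all tested genes. The larger number on the T cell side was gone after rescaling to equal totals (3 and 3) and to equal protein-coding totals (4 and 4). Pik3ip1, an inhibitor of PI3K, had 27.8 ± 6.14 in B cells and 104 ± 5.69 in T cells (SD, n = 6), a log2 fold change of -1.90. Sgk1, a kinase that phosphorylates FOXO proteins as AKT does, had 12.6 ± 1.55 in B cells and 47.6 ± 4.82 in T cells (SD, n = 6), a log2 fold change of -1.84. Inpp5d, which encodes the lipid phosphatase SHIP1, went the other way, with 90.4 ± 4.57 in B cells and 35.8 ± 2.05 in T cells (SD, n = 6), a log2 fold change of 1.31. Negative regulators of PI3K signalling were thus found on either side, Inpp5d in B cells and Pik3ip1 in T cells, and the 3 genes named were past the threshold under all 5 scalings.

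The antiproliferative genes of the BTG and TOB family included the most abundant regulator, Btg1, and the least abundant regulator of B cells, Tob1. The promoter sequences of Btg1, Btg2 and Tob1 are shown, and their part in the levels of these genes was not tested. Each is the 250 bases before the RefSeq transcription start in GRCm38.p6, 5′ to 3′ on the strand of the gene, and none overlaps an annotated exon. Btg1 lies on the + strand of chr10:96616751-96617000, Btg2 on the - strand of chr1:134079156-134079405 and Tob1 on the + strand of chr11:94211204-94211453. For Btg2 the RefSeq start lies outside the gene as annotated, 134075170 to 134079120. The stretch checked after this start was not found in an annotated Btg2 transcript, and match positions are counted from the RefSeq start. Capitals mark matches, on either strand, to GTAAACA (forkhead box), TGACGTCA (cAMP response element) or CCCACCC (KLF box), motifs chosen with the sequences in view.
Btg1: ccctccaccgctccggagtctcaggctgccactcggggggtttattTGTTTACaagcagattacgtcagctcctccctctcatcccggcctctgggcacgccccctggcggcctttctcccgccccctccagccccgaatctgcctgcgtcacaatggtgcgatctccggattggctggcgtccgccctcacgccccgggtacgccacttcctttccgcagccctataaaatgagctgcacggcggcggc
Btg2: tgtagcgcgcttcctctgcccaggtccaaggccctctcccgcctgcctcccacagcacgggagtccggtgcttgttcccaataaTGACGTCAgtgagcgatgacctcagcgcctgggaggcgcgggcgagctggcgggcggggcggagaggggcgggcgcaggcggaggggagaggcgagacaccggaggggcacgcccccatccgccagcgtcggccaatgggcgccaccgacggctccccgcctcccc
Tob1: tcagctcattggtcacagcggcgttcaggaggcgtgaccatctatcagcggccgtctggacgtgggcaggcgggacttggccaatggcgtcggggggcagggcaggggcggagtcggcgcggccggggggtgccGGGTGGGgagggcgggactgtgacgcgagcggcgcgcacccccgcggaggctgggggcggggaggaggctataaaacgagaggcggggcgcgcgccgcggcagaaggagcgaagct

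Among 14 RefSeq promoter windows of the 10 regulators, the forkhead box was matched in that of Btg1 alone, 204 to 198 bases before the start, while 3.17% of all 32851 windows of this length hold it. The cAMP response element was matched in Btg2 alone, 166 to 159 bases before the start, beside 1.55% of all windows. The KLF box was matched in 5 windows of 4 regulators (Klf2, Klf3, Foxp1 and Tob1), at 116 to 110 bases before the start in Tob1, beside 15.8% of all windows. The motifs do not overlap each other in these windows. The shown windows were rich in G and C, with 65.2% for Btg1, 73.2% for Btg2 and 73.6% for Tob1 beside a median of 52.4% over all windows. Because the motifs were chosen with the shown sequences in view, the shares over all windows only tell how common the letters are. They do not test whether the motifs are enriched in these promoters. A match describes letters only and does not show that a factor binds there.

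Btg1 (chromosome 10, 96617006 to 96622809) encodes a small adaptor that brings the deadenylase to mRNA in resting T cells. It ran from 359 through 419 to 504 in B cells and from 430.1 through 448 to 517 in T cells, with a log2 fold change of -0.13 and a 95% interval of -0.33 to 0.07 (limma adjusted p = 0.23). Btg2 (chromosome 1, 134075170 to 134079120), its close relative and a target of p53, ran from 105 through 132 to 141 in B cells and from 126 through 139 to 149 in T cells, with a log2 fold change of -0.10 and a 95% interval of -0.28 to 0.07 (limma adjusted p = 0.26). The ranges of both genes overlapped between lineages. The ratio of Btg1 to Btg2 was 3.28 in B cells and 3.34 in T cells by geometric mean, and the libraries ran from 2.86 to 3.97 and from 2.89 to 3.59 (exact two-sided permutation test, p = 0.771, adjusted p = 0.771). The annotation also holds 2 pseudogene copies of Btg1, named Btg1-ps1 and Btg1-ps2, and how reads shared with them were assigned is not given in the sources used here.

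Tob1 (chromosome 11, 94211454 to 94215495), a family member that restrains T cell activation, ran from 7.90 through 11.7 to 13.0 in B cells and from 12.1 through 17.1 to 19.2 in T cells. The ranges overlapped slightly, because male B cell 2 had 13.0 and male T cell 5 had 12.1. Tob1 was 1.45-fold higher in T cells, with a log2 fold change of -0.53 with a standard error of 0.12 (limma adjusted p = 0.0015). It was not past the threshold after rescaling to equal totals (-0.18, adjusted p = 0.44), after rescaling to equal protein-coding totals (-0.28, adjusted p = 0.057) or in males alone (-0.47, adjusted p = 0.064), 3 of 26 alternatives, and its direction was the same in all 26.

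The remaining BTG and TOB genes split by lineage. Of 3 listed, 2 could be tested. Btg3 was higher in T cells, with 6.45 ± 1.24 in B cells and 12.7 ± 2.55 in T cells (SD, n = 6), a log2 fold change of -0.88. Tob2 was higher in B cells, with 21.5 ± 2.66 in B cells and 12.8 ± 1.74 in T cells (SD, n = 6), a log2 fold change of 0.71. Tob1 and Tob2, the pair of TOB proteins, were therefore higher in opposite lineages. Of the 12 tested genes of the CCR4-NOT deadenylase and its partner Pabpc1, 3 were higher in B cells and 5 were higher in T cells. These counts stand beside 31.4% and 41.6% of all tested genes. The other 4 were not past the threshold, and the median log2 fold change of the list was -0.10. The differences were small, and the largest were those of the regulatory subunit Cnot3 (0.42) and of the catalytic subunits Cnot6l (-0.40) and Cnot7 (-0.26). After rescaling to equal totals or to equal protein-coding totals 0 genes of this list were higher in T cells, and Cnot7 changed sign to 0.11 and 0.02.

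Tsc1 (chromosome 2, 28641228 to 28691167), the partner that stabilizes TSC2, had the closest ranges among the regulators whose libraries did not overlap. It ran from 12.4 through 12.9 to 13.7 in B cells and from 10.5 through 11.2 to 12.4 in T cells. The lowest B cell value, 12.427, was barely above the highest T cell value, 12.415. Tsc1 was 1.12-fold higher in B cells, a log2 fold change of 0.17 with a standard error of 0.05 (limma adjusted p = 0.015). It missed the threshold in females alone (0.17, adjusted p = 0.11), in males alone (0.16, adjusted p = 0.12), without both T cell libraries numbered 4 (0.15, adjusted p = 0.065) and without both numbered 5 (0.13, adjusted p = 0.084), 4 of 26 alternatives, with the same direction in all 26.

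Its partner Tsc2, the subunit that switches off the GTPase RHEB, was 11.3 ± 0.545 in B cells and 8.08 ± 0.319 in T cells (SD, n = 6), a log2 fold change of 0.44 (limma adjusted p = 6.2e-06). The ratio of Tsc1 to Tsc2 was 1.08 to 1.20 in B cells and 1.31 to 1.56 in T cells, without overlap (exact two-sided permutation test, p = 0.00216, adjusted p = 0.00433). With the T cell libraries averaged by number, the exact permutation p was 0.0119 and 0.0238 after adjustment. Both subunits were thus higher in B cells, and Tsc2 by more than Tsc1. Of the 7 tested genes of the TSC complex and mTORC1, 2 were higher in B cells (Tsc2 and the kinase Mtor, 0.30) and 1 was higher in T cells (Rheb, -0.20). Over all tested genes the shares were 31.4% and 41.6%. The other 4 genes of the list were not past the threshold (median log2 fold change of the list 0.05). After rescaling to equal totals 3 were higher in B cells and after rescaling to equal protein-coding totals 5, with 0 in T cells in both. The 4 not past the threshold as deposited were Tbc1d7, the third subunit of the TSC complex (0.13), Rptor (0.05) and Mlst8 (-0.06), partners of the kinase, and Akt1s1, its inhibitor PRAS40 (0.02). The value for Rheb became 0.18 after rescaling to equal totals, 0.08 after rescaling to equal protein-coding totals and -0.11 under median-ratio scaling, and it was not past the threshold under those 3. Deptor, another inhibitor of the kinase, was under the filter.

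Tsc22d3 (chromosome X, 140539528 to 140600659) varied most between libraries of the same group. In female B cells it had 454, 217 and 443 and in male B cells 475, 509 and 171. In female T cells it had 251, 189 and 332 and in male T cells 234, 183 and 419.8. Female B cell 2 and male B cell 3 fell within or below the T cell range, while the other 4 B cell libraries were above all T cell libraries. The log2 fold change was 0.44 with a standard error of 0.31 and a 95% interval of -0.23 to 1.11 (limma adjusted p = 0.21). It crossed the threshold in 3 of 26 alternatives, namely without male B cell 3 (0.70, adjusted p = 0.028), after rescaling to equal totals (0.83, adjusted p = 0.00057) and after rescaling to equal protein-coding totals (0.73, adjusted p = 0.032), and was positive in all 26. For a gene of this spread the p-value under equal totals carries the limit given above. Without both T cell libraries numbered 6, which had the most Tsc22d3 among T cells, the log2 fold change was 0.71 (adjusted p = 0.073).

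The pooled SD of Tsc22d3 within groups was 0.65 on the log2 scale, larger than that of 98.9% of tested genes, whose median was 0.13. Klf2, Tob1 and Klf3 also varied more than most genes, with 0.26, 0.24 and 0.23, above 91.7%, 89.5% and 87.9% of genes. Foxp1, Tsc1 and Foxo3 varied less than most, with 0.08, 0.07 and 0.06. Thus the small differences of Foxo3 and Tsc1 were called on the smallest spreads of the set.

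Genes related to Tsc22d3 by family or by the glucocorticoid response did not share a direction. Of its 3 tested relatives, Tsc22d1 (log2 fold change 1.50) and Tsc22d2 (0.68) were higher in B cells, and Tsc22d4 (-0.19) was higher in T cells, although Tsc22d4 was past the threshold under the deposited scaling alone among the 5 scalings and turned to 0.19 and 0.09 after the rescalings to equal totals and to equal protein-coding totals. The glucocorticoid receptor gene Nr3c1 was higher in B cells, with 65.4 ± 4.22 in B cells and 53.1 ± 2.29 in T cells (SD, n = 6), a log2 fold change of 0.29. With Tsc22d3 not past the threshold, the other genes of this list of 4 split, Per1 higher in B cells (0.75) and Fkbp5 higher in T cells (-0.77). Female B cell 2 and male B cell 3, the libraries with low Tsc22d3, had 8.02 and 7.75 of Fkbp5, at the upper end of the B cell range of 5.34 to 8.02. Their Per1 values of 10.2 and 8.74 lay within the B cell range of 8.37 to 15.6.

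No regulator passed the threshold between females and males. In B cells 0 of 10 members did, beside 0.144% of tested genes, and in T cells 0 of 10, beside 0.104%. At an unadjusted p under 0.05, limma gave 0 members and 373 genes (2.98%) in B cells, and 0 members and 319 genes (2.55%) in T cells. The estimates of females minus males ran from -0.03 to 0.12 in B cells and from -0.06 to 0.18 in T cells on the log2 scale. The largest were those of Klf2 in B cells, at 0.12 with a 95% interval of -0.28 to 0.51, and of Tob1 in T cells, at 0.18 with an interval of -0.19 to 0.55. The difference between the sex effects of B and T cells passed the threshold for 0 of 10 members and for 0% of tested genes in limma, with 0 members and 295 genes (2.36%) at an unadjusted p under 0.05. In the T cell libraries alone, 14 genes passed the threshold with the number in the label as a replicate block and 6 without it, with 0 members in both fits. There the unadjusted limma p of Tob1 was 0.039 with the block (adjusted p = 0.85) and 0.25 without it. For Tsc22d3 the intervals of the sex effect were the widest in the fit over all 12 libraries, -0.92 to 0.97 in B cells and -1.01 to 0.88 in T cells. The T cell interval includes the spread between library numbers. In the T cell libraries alone, the estimate for Tsc22d3 was -0.06, with a standard error of 0.31 without the block and 0.10 with it.

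The 3 numbered pairs of female and male T cell libraries did not overlap for 2 of the 10 regulators, Klf2 and Tsc22d3, a share close to the 18.0% of all tested genes, so this describes the libraries and is not particular to the regulators. Klf2 had 199 and 205 in the female and male library numbered 4, 171 and 168 in those numbered 5 and 145 and 136 in those numbered 6. Tsc22d3 had 251 and 234, 189 and 183, and 332 and 419.8 in the same order. In B cells the pairs were apart for 0 of 10 regulators, beside 6.02% of tested genes.

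Immediate early genes, which rise within minutes of stimulation or cell handling, were in part divided by the same T cell numbers. Of the 10 that could be tested, the T cell pairs did not overlap for 6 (Fos, Fosb, Jun, Junb, Dusp1 and Ier2), beside 18.0% of all tested genes, and the B cell pairs for 3 (Fos, Egr1 and Dusp1), beside 6.02%. Between the lineages 0 were higher in B cells and 3 in T cells (Dusp1 at -0.95, Junb at -0.79 and Ier2 at -0.75). The shares over all tested genes were 31.4% and 41.6%, and 7 genes of the list were not past the threshold. After rescaling to equal totals 5 genes of this list were higher in B cells and 1 was higher in T cells. After rescaling to equal protein-coding totals 2 were higher in B cells and 1 in T cells. The calls under equal totals carry the limit given above, as Hspa1b was among them although its ranges nearly coincided. As deposited Hspa1b ran from 3.45 to 66.8 in B cells and from 3.40 to 73.2 in T cells. Fos, named here after its values were seen, had 171 and 189 in the T cell libraries numbered 4, 108 and 131 in those numbered 5 and 45.2 and 41.5 in those numbered 6. The libraries numbered 6 thus had the least Fos and Klf2 and the most Tsc22d3 among T cells. In B cells Fos was highest in female B cell 1 (174), which also had the highest Klf2 (222), and lowest in male B cell 3 (16.6), which had the lowest Klf2 (138) and the lowest Tsc22d3 (171). The summed level of the 11 listed immediate early and stress genes ran from 263 to 603 in B cells and from 295 to 844 in T cells. Their part in the levels of Klf2 and Tsc22d3 was not tested.

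**Figure D5:**
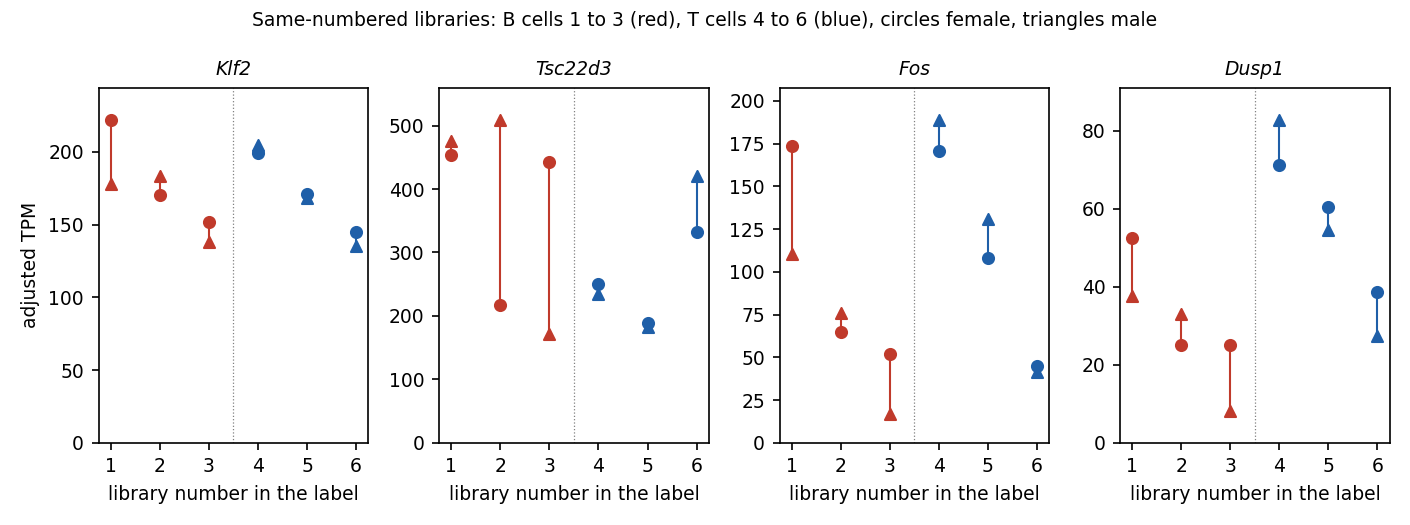
Adjusted TPM of Klf2, Tsc22d3, Fos and Dusp1 in libraries with the same number in their label, circles female and triangles male joined by a line, B cells in red and T cells in blue. In T cells the pairs of each of the 4 genes are apart from each other and in B cells those of Fos and Dusp1, with Klf2 in T cells at 199 and 205, 171 and 168, and 145 and 136.

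For each regulator, the 3 protein-coding genes (2 are given for Foxo3) with the most similar centred log2 profile over the 12 libraries were found by the root-mean-square difference. Foxp1 was followed most closely by Aff3, Gltscr1l and Camta2 (0.07 each), well under the SD of Foxp1 itself over the libraries, 0.45. Klf3 was followed by 1190002N15Rik (0.09), Tagap (0.12) and Lrrc8a (0.13) with an SD of 0.49, and Tob1 by Cd160 (0.11), Pmepa1 (0.14) and Zc3hav1 (0.14) with an SD of 0.35. Tsc1 was followed by Mapk6, Zfp398 and Arhgef7 (0.04 to 0.05) and Foxo3 by Usp14 (0.03) and Mpdu1 (0.05), in both cases at an SD of 0.11. The likeness is a description over 12 libraries and carries no test.

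Klf2 was followed by Pard6a, Jund and Hmgb1 (0.11 to 0.12, SD 0.23), and Jund belongs to the same AP-1 family as Fos. Btg1 was followed by Hmgb1, Tra2b and Tlcd1 (0.07 to 0.08, SD 0.15), Btg2 by Umps, Phf11b and Ndufab1 (0.06 to 0.07, SD 0.14) and Foxo1 by Smap1, Gsk3b and Dock2 (0.06 to 0.07, SD 0.11). Tsc22d3 had Zfp36l2, Dusp2 and Cd69 as its nearest, at 0.34, 0.35 and 0.37 with an SD of 0.60. Such a difference grows with the SD of the regulator, so its size cannot be compared directly between regulators.

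Among 9 tested genes of a wider list with known parts in lymphocyte quiescence, 3 were higher in B cells, 5 were higher in T cells and 1 was not past the threshold (median log2 fold change -0.32), beside 31.4% and 41.6% of all tested genes. The numbers were 3 and 2 after rescaling to equal totals and 4 and 4 after rescaling to equal protein-coding totals. Peli1, a ubiquitin ligase that restrains T cell activation, had 37.4 ± 1.81 in B cells and 131 ± 13.2 in T cells (SD, n = 6), a log2 fold change of -1.78. Bach2, a repressor of effector programmes, had 61.9 ± 5.79 in B cells and 25.0 ± 5.26 in T cells (SD, n = 6), a log2 fold change of 1.29. Ets1, a factor abundant in resting lymphocytes, had 392 ± 23.9 in B cells and 756 ± 43.7 in T cells (SD, n = 6), a log2 fold change of -0.95. Under each of the 5 scalings the differences of Peli1 and Bach2 were larger in size than that of any of the 10 regulators.

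The libraries matched their labels by lineage markers, since the 5 B cell markers (5 of 5 higher in B cells) summed to at most 5.34 in T cells and the 5 T cell markers (5 of 5 higher in T cells) to at most 14.1 in B cells. Sequencing depth is not known, and replicates of a group correlated across genes, which are not independent replicates, at 0.985 to 0.992. In female B cell 1 and male T cell 6 a single gene, Yam1, took 32.2% and 37.4% of the total, and without these libraries 2 regulators were higher in B cells and 3 in T cells, as with them. Markers of other cells differed in places. Monocyte markers summed to 8.95 to 13.1 in B cells and 1.06 to 4.55 in T cells, with Lyz2 and Cd68 both higher in B cells and Csf1r under the filter. Of 7 proliferation genes, 5 were higher in B cells, the largest being Mki67 (2.99), Top2a (2.21) and Cdk1 (1.96). The other 2 were higher in T cells, beside 31.4% of all tested genes higher in B cells and 41.6% in T cells. Of 3 plasma cell markers 1 was higher in T cells and 2 in B cells, and of 2 CD8 T cell markers 1 was higher in each. Erythroid markers, 0 of 3 past the threshold, summed to 0.902 to 304 in B cells and 2.14 to 64.8 in T cells, while neutrophil markers summed to at most 2.57 and NK cell markers to at most 0.788. The T cells were sorted for little CD44 and no CD25. For Cd44 and Il2ra a difference between lineages therefore cannot be told apart from the sort and is no result on activation. Of 3 activation markers, Cd44 was higher in B cells (1.36), while Il2ra (-0.21) and Cd69 (-0.04) were not past the threshold and were highest among T cells in the libraries numbered 6. The part of these cells in the differences of the regulators was not tested.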

How the data were processed

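RNA of B cells at rest and of naive CD4+ T cells from both sexes was sequenced in 12 libraries of pooled mice, 3 per group, from ribosome-depleted, strand-specific preparations. The authors deposited a signal table of adjusted TPM, with a point estimate and a lower and an upper bound per gene and library. The quantification tool, the adjustment and the level of the bounds are not given in the sources used here, and the submitters' processing notes name Trim Galore, FastQC, STAR and the mm10 build with no role. The deposited TPM signal is no count, so the depth is unknown and no count model was used. The labels give the molecule as genomic DNA, while the protocols describe RNA.

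Genes with at least 1 adjusted TPM in at least 3 libraries were kept (12520 of 41128). Values were tested as log2(adjusted TPM + 1) with limma 3.58.1 in R 4.3.3, with a trend and 1 coefficient per group over all 12 libraries, and p-values were Benjamini-Hochberg adjusted over all kept genes at 0.05. Fold changes on this scale understate those of low genes. The ratio of a pair of genes was compared with exact permutation tests over 6 and 6 libraries, also in R. Intervals are 95% intervals of limma. All 10 members were named, together with the 3 largest changes of each related list, the KLF2 and FOXO1 targets and the mTORC1 genes, and the 3 nearest protein-coding profiles of each member, except 1 listed target and 1 near profile that are not reported here. The members and lists were chosen with earlier results of these data known.

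Coordinates were taken from GENCODE M21 by identifier (97.9% of genes matched), and promoters and motif shares from RefSeq (GRCm38.p6). The fit was tested on simulated data. Alternatives were another pseudocount, no filter, 4 other scalings, each sex alone, each library left out and a replicate block, and those added later are named below. Female and male T cell libraries with the same number deviated together (correlations of deviations from the group means 0.72, 0.55 and 0.52), so these numbers were taken as pairs, a property read from the data since the labels do not say what the number stands for.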

Additional observations from a re-analysis of the deposited data

How the results depend on the processing

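Of 260 values of single regulators between B and T cells under 26 alternatives, 230 kept their direction and their side of the threshold, 9 lost the threshold, 4 crossed it and 17 changed sign, and for the latter the cause was not tested. Changed signs were Foxo1 (0.30), Foxo3 (0.20), Btg1 (0.25) and Btg2 (0.28) after rescaling to equal totals, Foxo1 (0.016) under median-ratio scaling, Btg1 (0.10) under quantile normalization and, after rescaling to equal protein-coding totals, Foxo1 (0.21), Foxo3 (0.10), Btg1 (0.16) and Btg2 (0.18). Klf2 ran from -0.049 to 0.10 when each library was left out, and was -0.049 without female B cell 1, -0.010 without male B cell 2, -0.029 without female T cell 6 and -0.047 without male T cell 6. It was -0.017 in males alone, -0.12 without the libraries with over 30% of the total in 1 gene and -0.10 without both T cell libraries numbered 6. The protein-coding totals, the libraries with 1 dominant gene, the left-out pairs of T cell libraries and the averaging of libraries with the same number were chosen after seeing the data. With females and males of the same number averaged, 8703 genes and 5 regulators passed the threshold.

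Between B and T cells 9134 genes passed the threshold, 24591 without the filter on low values, and 8686 to 9164 when each library was left out. Regulators past the threshold were 5, and 3 in females alone, 3 in males alone and 5 to 6 when each library was left out. Between the sexes of B cells 18 genes passed, 10985 without the filter, 44 after rescaling to equal totals and 11 to 17 when each library was left out. Between the sexes of T cells 13 genes passed, 24 with a pseudocount of 0.1, 10607 without the filter, 26 after rescaling to equal totals and 7 to 10 when each library was left out. For the difference between the sex effects 0 genes passed, 1 with a pseudocount of 0.1, 11201 without the filter, 20 after rescaling to equal totals, 1 under quantile normalization and 0 to 1 when each library was left out. The fits without the filter test all 41128 genes.

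With the number in the label as a replicate block, 14 genes differed between the sexes of T cells (6 without the block in T cells alone), 5 in B cells (12 without it) and 0 in the difference of the effects, with 0 regulators in each, so the block changed no call of a regulator. In B cells libraries with the same number did not deviate together (correlations of -0.17, -0.04 and -0.34). No paired analysis was possible between B and T cells because B cell libraries are numbered 1 to 3 and T cell libraries 4 to 6.

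When each library was left out, the log2 ratio of B to T cells was 0.81 to 0.99 for Klf2 to Klf3, 0.083 to 0.15 for Foxo1 to Foxo3, -0.079 to 0.016 for Btg1 to Btg2 and -0.33 to -0.27 for Tsc1 to Tsc2. Foxo1 to Foxo3 was past the threshold without female B cell 3 (0.15) or female T cell 6 (0.15), each with an exact permutation p adjusted to 0.0404, and Btg1 to Btg2 changed sign to 0.016 without female B cell 3 and to 0.019 without both T cell libraries numbered 4. With the T cell libraries averaged by number, the ratios Klf2 to Klf3 and Tsc1 to Tsc2 stayed past the threshold (exact permutation, adjusted p = 0.0238 each), and these settings of the ratios were added after seeing the data. With pools as samples, the spread between animals is not covered.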
